A study of Homo sapiens with 2 samples.

Results

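The genes described here encode LSD1 and the CoREST complex in which it works: KDM1A, RCOR1, RCOR2, RCOR3, HDAC1, HDAC2, PHF21A, HMG20B and ZMYM2. They are 9 of the 19869 protein-coding genes examined, and 18 of the 20110 LSD1 peaks in the authors' list overlapped one of them or lay within 10 kb of it. The study mapped LSD1 on the genome of PC-3M-luc, a luciferase-marked human prostate carcinoma line derived from a metastatic variant of PC-3. LSD1 ChIP-seq (chromatin precipitated with an Abcam antibody to LSD1, then sequenced) gave 1 library, and input DNA gave 1 library; both came from cells of control genotype at passages 17 to 20, grown in medium with 10% serum. The results thus rest on 1 cell line and 1 library of each kind: nothing below could be checked against a replicate, no p-value is given, and the read depth behind the peaks is unknown. The peak list holds positions and not expression, so it offers no check of the cell type by marker genes. Intervals are exact 95% binomial intervals and cover counting error only.

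LSD1, the product of KDM1A, is a flavin-dependent amine oxidase that demethylates histone H3 lysine 4 carrying a single or a pair of methyl groups. On its own it acts poorly on nucleosomes; a CoREST scaffold protein (RCOR1 or a relative) holds it there together with the deacetylases HDAC1 or HDAC2. PHF21A reads unmethylated H3 lysine 4, HMG20B binds DNA through an HMG box, and ZMYM2 is a zinc finger protein that binds SUMO. The complex was first described as the corepressor of REST, which keeps neuronal genes silent outside neurons.

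LSD1 peaks stood at the starts of the genes for its own complex, with a single exception. A canonical promoter peak, meaning any base of a peak within 1 kb of the transcription start site (TSS) of the canonical transcript, was present at 8 of the 9 genes (88.9%), and RCOR2 had none. Over all protein-coding genes the share was 55.7% (interval 55 to 56.4). In all 8 cases the TSS itself lay inside the peak. Over all 19869 genes, 11061 had a promoter peak and 10778 (54.2%) had the TSS in a peak. Promoter peaks thus mostly covered the TSS, and the 8 did not differ in this. Every one of the 9 promoters was CpG-rich (more than 55% GC, and more than 0.65 of the CpG dinucleotides expected from base content, in the 1000 bp around the TSS), as were 56.6% of all promoters. Among CpG-rich promoters 77.1% carried a peak (interval 76.3 to 77.8), against 27.7% of the others, so the count of 8 in 9 lies close to the level of promoters of the same class.

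**Figure D1:**
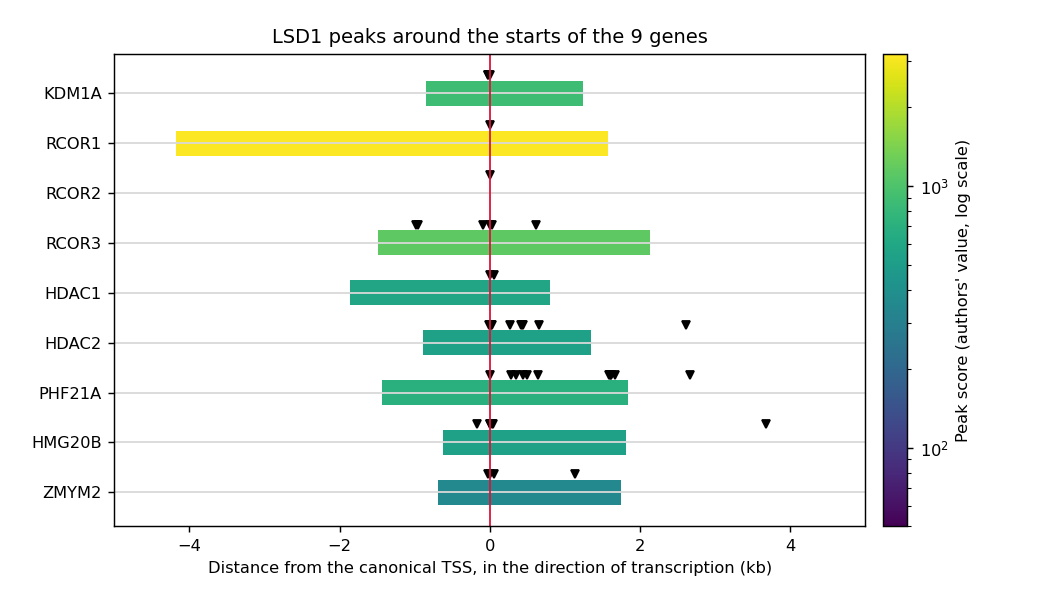
LSD1 peaks (bars) around the canonical TSS (red line) of each gene, with distance in kb in the direction of transcription; bar colour is the authors' score on a log scale and black triangles mark start sites of protein-coding transcripts. Bars cross the red line at 8 genes, the RCOR1 bar runs furthest upstream (4182 bp), and RCOR2 has no bar.

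KDM1A, the demethylase gene itself (hg19 chr1:23345936-23410182, plus strand), had a promoter peak of 2090 bp at chr1:23345114-23347203 with a score of 877.5. Scores are those of the authors' peak caller and serve here only to rank and describe, and 877.5 stood at percentile 77 of genes with a promoter peak. The peak ran from 847 bp before the TSS to 1242 bp past it, over the whole of exon 1 and into intron 1. It held the 3 coding start sites clustered there, while the remaining coding start sites, 57766 and 59545 bp downstream, had no peak within 1 kb. The same peak also covered an alternative start site of TEX46, a testis-type gene on the other strand whose canonical TSS lies outside it.

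A second, weaker peak followed the KDM1A gene. It spanned chr1:23410523-23413506 (2984 bp, score 194.5) and began 341 bp past the 3′ end of KDM1A. LUZP1, an actin-associated leucine zipper protein gene, runs towards KDM1A from the opposite strand and ends at 23410523, the first base of that peak. All 2984 bp lay in LUZP1 exon sequence and 0 of them in its coding sequence, so the peak sat on the 3′ untranslated end of the neighbour. Its CpG ratio was 0.140, against 0.890 in the KDM1A promoter peak. Both peaks also overlapped a further annotated gene, ENSG00000240553.

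The 3 scaffold genes spanned the whole range, from a score at the top of the list to no peak at all. RCOR1, the original CoREST (chr14:103058986-103196898, plus strand), had a promoter peak of 5760 bp at chr14:103054804-103060563 with a score of 3100. That score is shared by 206 peaks and exceeded by 19, and a value repeated this often may be a limit of the score, so RCOR1 cannot be ranked within that set. Only 1.16% of all genes had a promoter peak of at least 3100. The RCOR1 peak lay mostly upstream, reaching 4182 bp before its single coding TSS and 1577 bp past it, and overlapped the end of a long non-coding RNA gene (ENSG00000289862) and exons 1 and 2 of RCOR1. Because of this its midpoint is more than 1 kb from the TSS.

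RCOR3, a paralogue reported in mouse blood cells to oppose the action of LSD1 with RCOR1 (chr1:211431719-211489727, plus strand), had 1 peak. It spanned chr1:211431217-211434841 (3625 bp) with a score of 1148.94, at percentile 85 of promoter peaks. RCOR3 starts at several places: 6 of its 8 coding start sites, from 989 bp before to 609 bp past the canonical one, all lay within this peak, and those 19872 and 29812 bp downstream had none. The nearest other peaks lay 65746 bp from the gene on its 3′ side and 1401020 bp from it on its 5′ side.

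RCOR2, a paralogue known in mouse from embryonic stem cells and neural progenitors (chr11:63678702-63684636, minus strand), had no peak in the gene or within 10 kb. Over all genes 32.1% were in that position, and among genes with CpG-rich promoters 15.8%. The nearest peaks were at the starts of its neighbours: NAA40, an N-terminal acetyltransferase gene, at 20645 bp (chr11:63705281-63707470, score 166.63) and MARK2, a microtubule-affinity kinase gene, at 71018 bp (chr11:63606179-63607684, score 174.1). Its promoter had a GC content of 74.2%, close to 74.8% at RCOR1, but a lower CpG ratio, 0.713 against 0.929. Of 311 promoters with GC over 70% and a ratio of 0.65 to 0.75, 63% carried a peak (interval 57.4 to 68.4). The list holds only what passed the authors' threshold, so the lack of a peak at RCOR2 does not show that LSD1 was absent there.

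The bases just before the TSS are given for KDM1A and for RCOR1, the scaffold gene with the highest-scoring peak, to show what lay under these peaks. Each is the 250 bases before the canonical TSS, read from GRCh37 (hg19) on the gene's strand, 5′ to 3′: chr1:23345711-23345960 (plus) for KDM1A and chr14:103058736-103058985 (plus) for RCOR1. Capitals mark GGGCGG, the core GC box of SP and KLF factors, and CCAAT, the box of NFY, on either strand; a match is a description of letters, not of binding.
KDM1A: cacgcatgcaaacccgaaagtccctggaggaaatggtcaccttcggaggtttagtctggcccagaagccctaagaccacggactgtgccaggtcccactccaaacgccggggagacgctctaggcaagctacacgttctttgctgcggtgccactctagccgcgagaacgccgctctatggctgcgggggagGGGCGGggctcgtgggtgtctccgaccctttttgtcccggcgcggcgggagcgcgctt
RCOR1: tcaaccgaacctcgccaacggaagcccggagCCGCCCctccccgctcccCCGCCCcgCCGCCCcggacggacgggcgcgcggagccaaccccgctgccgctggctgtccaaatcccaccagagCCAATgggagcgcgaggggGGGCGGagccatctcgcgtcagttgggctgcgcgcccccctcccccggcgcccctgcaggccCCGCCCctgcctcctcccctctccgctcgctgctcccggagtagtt
RCOR1 has 30 CpG dinucleotides in this stretch and KDM1A 23. The median was 23 over genes with a promoter peak and 7 over genes without. RCOR1 holds 5 GC boxes and 1 CCAAT box, and KDM1A holds 1 GC box and no CCAAT box.

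The deacetylase genes HDAC1 and HDAC2 had promoter peaks of nearly the same score, and differed in what lay around them. HDAC1 (chr1:32757684-32799236, plus strand) had its promoter peak at chr1:32755816-32758487 (2672 bp, score 572.74, percentile 58.9), and both coding start sites lay within it. HDAC2 (chr6:114254192-114332472, minus strand) had its promoter peak at chr6:114290972-114293198 (2227 bp, score 535.45, percentile 56.4). The HDAC1 peak leaned upstream, with 1868 bp before the TSS and 803 bp past it, whereas the HDAC2 peak had 886 bp before and 1340 bp past. The HDAC2 peak took in 10 of 12 coding start sites and a start of HDAC2-AS2, an antisense non-coding gene. An HDAC2 start site 40160 bp further upstream had no peak within 1 kb.

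HDAC1 had a pair of further peaks and HDAC2 none. A 1775 bp peak lay within an intron of HDAC1 at chr1:32786536-32788310 with a score of 198.89. The other, chr1:32796833-32802347, was 5515 bp wide with a score of 2495.55, above that of the HDAC1 promoter. It overlapped exons 10 to 14 of HDAC1, with 467 bp of its coding sequence, and the entire gene of MARCKSL1 (chr1:32799440-32801834, minus strand), a MARCKS-like actin regulator, including that gene's canonical TSS. The list therefore does not show whether signal over the last HDAC1 exons belongs to HDAC1 or to the MARCKSL1 promoter. On HDAC2's side of lower coordinates the nearest peak, 73213 bp from the gene, covered the canonical TSS of MARCKS, the relative of MARCKSL1 (chr6:114175702-114180979, score 1859.1).

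The upstream sequences of HDAC1 (chr1:32757434-32757683, plus) and HDAC2 (chr6:114292313-114292562, minus) are set side by side because the peaks of these close paralogues have nearly the same score while their promoters hold different elements. The build, window and capitals are as above.
HDAC1: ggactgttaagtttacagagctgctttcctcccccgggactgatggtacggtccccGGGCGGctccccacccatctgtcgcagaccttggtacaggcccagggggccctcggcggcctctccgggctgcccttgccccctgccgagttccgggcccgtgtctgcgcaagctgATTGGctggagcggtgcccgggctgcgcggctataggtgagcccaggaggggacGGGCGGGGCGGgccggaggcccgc
HDAC2: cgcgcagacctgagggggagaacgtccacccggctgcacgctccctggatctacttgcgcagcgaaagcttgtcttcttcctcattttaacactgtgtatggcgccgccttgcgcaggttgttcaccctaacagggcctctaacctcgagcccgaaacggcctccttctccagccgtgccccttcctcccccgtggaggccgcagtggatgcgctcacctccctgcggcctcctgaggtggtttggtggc
HDAC1 holds 3 GC boxes, of which the last 2 overlap by a base, and 1 CCAAT box at -78 to -74. HDAC2 holds 0 of either and was the only gene of the 8 with a promoter peak that had no GC box in this window, at 63.2% GC and 18 CpG dinucleotides against 71.6% and 21 at HDAC1.

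The remaining subunit genes each had a promoter peak that reached past the TSS further than before it. PHF21A, the reader of unmethylated H3 lysine 4 (chr11:45950870-46143005, minus strand), had a single peak at chr11:46141163-46144442 (3280 bp, score 705, percentile 67.6). Its 14 coding start sites are spread widely, and 11 of them, up to 1667 bp past the canonical one, fell inside this peak. The PHF21A gene is 192136 bp long, and 0.959% of it lay under a peak. The nearest further peak lay just beyond the limit of 10 kb, at 10138 bp past the 3′ end (chr11:45938812-45940732, score 642.95), over the start of PEX16, a peroxisome biogenesis gene.

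HMG20B, the HMG-box subunit (chr19:3572775-3579086, plus strand), is a short gene with 45.1% of its length under peaks. Its promoter peak at chr19:3572321-3574750 (2430 bp, score 527.79, percentile 55.6) overlapped exons 1 to 4 and also an alternative start of MFSD12, a lysosomal transporter gene on the other strand. A second peak of 1656 bp (chr19:3578215-3579870, score 125.19) lay over exon 10, the last exon, with 575 bp of exon and 10 bp of coding sequence beneath it. Beyond 10 kb, the canonical MFSD12 promoter peak stood 14058 bp away (chr19:3555982-3558717, score 923.41).

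ZMYM2, the SUMO-binding subunit (chr13:20532817-20665968, plus strand), had the weakest promoter peak of the 8. Its peak at chr13:20532174-20534614 was 2441 bp wide with a score of 354.17 (percentile 39.3) and held all 4 coding start sites. That peak also overlapped a further annotated gene, ENSG00000289235. The ZMYM2 promoter had the highest GC content of the 9 (77%). A narrow peak of 683 bp ended 87 bp before the 3′ end of the gene (chr13:20665199-20665881) and overlapped no exon of the canonical transcript. With a score of 51.35 it stood just above 50, the lowest score in the list.

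**Figure D2:**
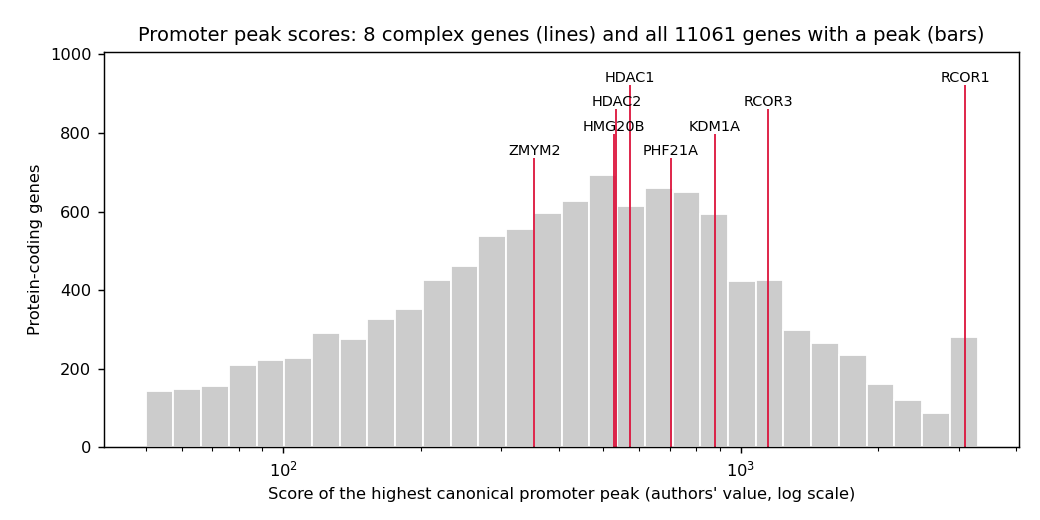
Score of the highest canonical promoter peak (log axis) over all 11061 protein-coding genes with one (grey bars, number of genes per bin) and at 8 complex genes (red lines). RCOR1 lies at 3100 in the last bin, ZMYM2 at 354.17 is the lowest, and HDAC1, HDAC2 and HMG20B lie within 527.79 to 572.74.

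Set side by side, promoter peaks at the complex genes were wider than the median promoter peak. Their widths ran from 2090 bp at KDM1A to 5760 bp at RCOR1, with a median of 2556 bp (quartiles 2379 to 3366), against 1955 bp (1457 to 2758) over all 11061 genes with one and 1998 bp over CpG-rich ones. All 8 exceeded 1955 bp, as did 52% of peaks at CpG-rich promoters. Their scores had a median of 638.9 (533.5 to 945.4), against 464.7 (231.6 to 840.6) over all such genes and 494.8 (254.6 to 865.9) over CpG-rich ones. Of the 8, all but ZMYM2 exceeded 464.7, against 52.9% at CpG-rich promoters. With the members known in advance and 1 library, these counts describe 8 peaks and are no test.

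By their medians the extra width lay more past the start site than before it. The peaks reached a median of 1662 bp past the TSS and 1162 bp before it, against 1003 and 867 bp over the 10705 genes whose TSS lay in their highest promoter peak. At 6 of the 8 the reach past the TSS was the longer one, and HDAC1 and RCOR1 were the exceptions; over all such genes it was the longer one in 58.3%. Of the 53 coding start sites of the 9 genes, 42 lay inside a peak, against 50.5% of the coding start sites of all genes. All 42 were among the 52 sites of the 8 genes with a promoter peak, and over all genes with a promoter peak the share was 76.1%, so this count lies close to the level of such genes. No member had a peak that stood at an alternative promoter alone: those start sites either shared the canonical peak or had none within 1 kb, apart from a PHF21A site 2668 bp downstream that lay just outside the canonical peak.

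Away from their own promoters the complex genes had 10 peaks, 4 in gene bodies and 6 in flanks, at 5 of the 9 genes (55.6%, against 44.6% of all genes). The 10 include the HDAC1 peak over the MARCKSL1 start, and the share of all genes likewise counts peaks at starts of neighbours. Scores of the 10 had a median of 103.5 (89.24 to 177.2) and all but the MARCKSL1 peak scored 198.89 or less. Body peaks occurred at HDAC1, HMG20B and ZMYM2, 3 of 9 genes, against 24.2% of all genes. Of the genes of at least 100 kb, RCOR1 and PHF21A had no body peak and ZMYM2 had the one of 51.35; among all genes of that length 27.2% had one.

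**Figure D3:**
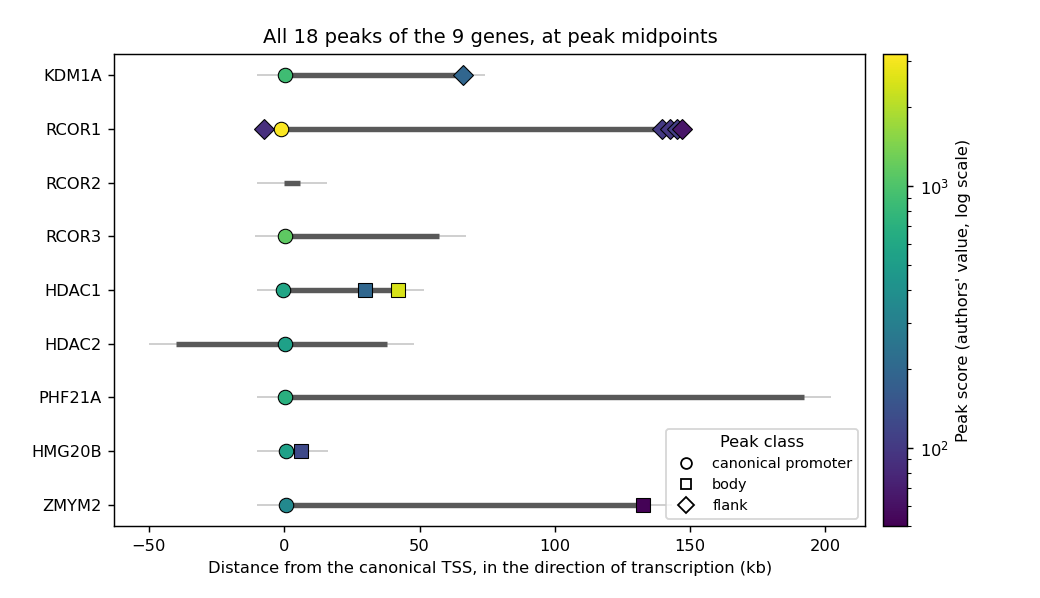
All 18 peaks at their midpoints, along each gene (dark line) and its 10 kb flanks (thin line), in kb from the canonical TSS in the direction of transcription; colour is the authors' score on a log scale. Low-scoring peaks gather past the 3′ end of RCOR1, and the 2495.55 peak at the end of HDAC1 is the one over MARCKSL1.

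RCOR1 held 6 of the 18 peaks, a number that 3.56% of all genes reach. Besides the promoter peak, 1 lay upstream at chr14:103050733-103052460 (1728 bp, score 86.96), within the neighbouring non-coding gene, and 4 lay downstream. The downstream peaks began 909 bp past the 3′ end and formed a chain over 8714 bp, of which 7125 bp were under a peak: chr14:103197807-103199097 (score 100.39), chr14:103200442-103202923 (96.09), chr14:103203036-103205018 (106.63) and chr14:103205152-103206520 (63.36). The gaps between them were 1344, 112 and 133 bp, so some may be parts of one broader stretch split by the caller, which was not tested. No annotated gene of any type overlapped the chain, and 0.181% of all genes (36) had at least 4 peaks within 10 kb past their 3′ end. The cut-offs of 6 and 4 are the counts of RCOR1 itself, and the 6 include the 4. Both shares are therefore descriptions and no test.

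The chain's peaks scored low, at percentiles 12.8 to 32.1 of the list. They were 1291 to 2482 bp wide, above the median width of 1156 bp of the 3873 peaks with scores in the same range. Against the median of 1649 bp over all peaks, those of 1291 and 1369 bp were narrower and those of 1983 and 2482 bp wider. Their CpG ratios of 0.189 to 0.352 were below the 0.647 of the RCOR1 promoter peak. The next peak lay 15108 bp further on, with a score of 53.51. Copy number, which an abnormal karyotype such as that of PC-3 derived lines can shift, was not analysed here.

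Promoter composition varied among the 9 genes, and its order was not that of the scores. GC content in the 1000 bp around the TSS ran from 62.6% at HDAC1 and 63.1% at KDM1A to 77% at ZMYM2, with a median of 70.6% against 61.4% over all genes. The CpG ratio ran from 0.684 at PHF21A to 0.990 at KDM1A, with a median of 0.838 against 0.726. PHF21A had a lower ratio than RCOR2 and yet carried a peak of 705, and ZMYM2 had a higher GC content than RCOR1 and carried the lowest score. These are descriptions of 9 promoters.

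**Figure D4:**
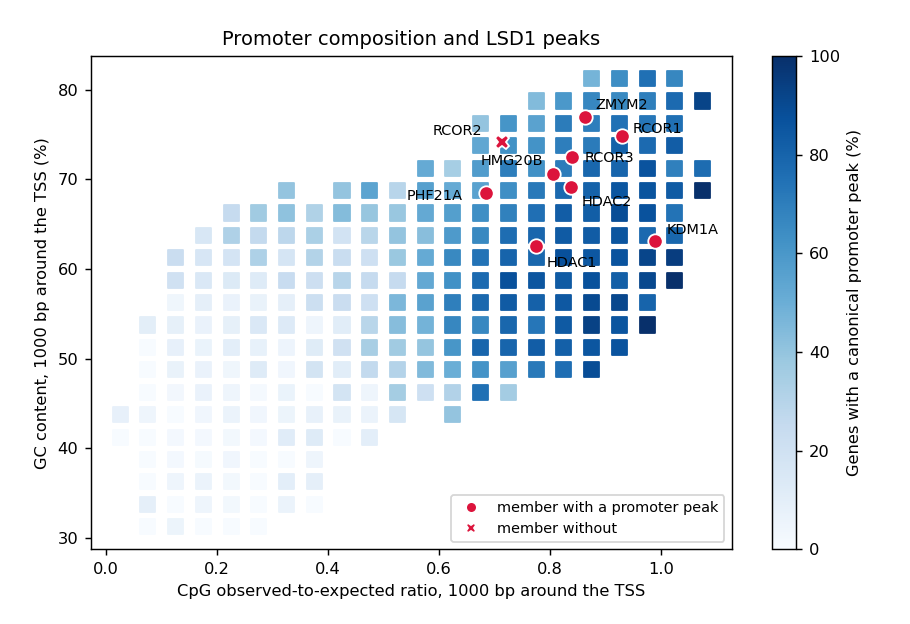
GC content (percent) against CpG observed-to-expected ratio in the 1000 bp around the canonical TSS; squares are bins of at least 10 protein-coding genes coloured by the percent with a promoter peak, and red symbols are the 9 genes. All lie in the CpG-rich part of the plot, with RCOR2 (cross) at a ratio of 0.713 and a GC content of 74.2%.

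Letters of 12 transcription factor elements were searched on both strands of the 250 bases before each TSS. Of the 8 complex genes with a promoter peak, 7 held the GC box, against 74.1% of promoters with a peak and 59.1% of all promoters. The CCAAT box occurred at RCOR1, HDAC1, HMG20B and ZMYM2, 4 of the 8, against 35.3% of promoters with a peak and 34.3% of all promoters. HMG20B was the richest, with 5 GC boxes and 3 CCAAT boxes. The E-box CAGGTG of SNAI and ZEB factors, which recruit LSD1, occurred at ZMYM2 alone, against 15% of promoters with a peak and 17.3% of all promoters. None of the 8 windows held CCGGAAG of ETS factors (18.3% of promoters with a peak and 11.9% of all promoters), CACGTG of MYC (9.61% and 7.87%), TATAAA of the TATA box (4.56% and 9.26%), TGACTCA of AP-1 (2.01% and 3.06%), TGACGTCA of CREB (3.34% and 2.4%), GCGCATGCG of NRF1 (3.85% and 2.43%) or AAGATGGCG of YY1 (1.14% and 0.73%). Neither did they hold TTCAGCACC (0.217% and 0.262%) or GGACAGCG (1.89% and 1.59%), parts of the REST element. GC boxes overlapped each other at RCOR3, HDAC1 and HMG20B, and absence of a string says only that these letters are not in this window.

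Other genes of the LSD1 network were read in the same way. Of 18 further genes (other complex subunits, relatives of the catalytic subunits, and DNA-binding factors that recruit LSD1 or CoREST), 12 had a canonical promoter peak, with a median score of 390.7, against 55.7% of all genes and a median of 464.7. Of the 14 with CpG-rich promoters 10 had one, against 77.1% of all CpG-rich promoters, so this count too lies close to the level of its class.

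Among other subunits 6 of 8 had a promoter peak, against 55.7% of all genes. GSE1, a coiled-coil protein of CoREST complexes, had the highest score (3041.32, chr16:85643607-85650505, 6899 bp), followed by CTBP1, a corepressor that binds short peptide motifs (1068.03, chr4:1240397-1245755, 5359 bp). CTBP2, the close relative of CTBP1, had none at its canonical promoter, which was not CpG-rich, but 2 peaks at alternative promoters, the higher with a score of 1143.66. PHF21B, the paralogue of PHF21A, had none at its canonical promoter although that was CpG-rich, and 1 body peak with a score of 88.06.

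All 3 relatives of the catalytic subunits had a promoter peak (55.7% of all genes did), each scoring below the median of all genes with one. KDM1B, the other flavin-dependent H3 lysine 4 demethylase, had 448.28 (chr6:18154620-18156862), against 877.5 at KDM1A. HDAC8, a class I deacetylase outside CoREST, had 146.06 (chrX:71792049-71793238).

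Among the recruiting factors 3 of 7 had a promoter peak, against 55.7% of all genes. SNAI1, a repressor of E-cadherin in epithelial-mesenchymal transition, had the highest score (1776.15, chr20:48597981-48600211), and ZEB1, another such repressor, had 163.14 (chr10:31607067-31608355). REST, named here after its values were seen because CoREST takes its name from it, had 158.07 at its promoter (chr4:57773728-57775830) and a higher peak of 422.04 within 10 kb of the gene. That higher peak lay outside REST, in its flank, and whether it stands at the start of a neighbouring gene was not examined. GFI1, a repressor of blood cell genes, INSM1, a neuroendocrine zinc finger factor, and ZNF516, a zinc finger factor that binds LSD1, had no peak in the gene or within 10 kb although all 3 promoters were CpG-rich. GFI1B, the relative of GFI1 in red cell and platelet precursors, had none at its canonical promoter, which was not CpG-rich. It had 1 at an alternative promoter with a score of 437.87. RCOR2 also lacked any peak, as did 15.8% of all genes with CpG-rich promoters (1778 genes). Whether these genes as a group differ from that share was not tested.

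**Figure D5:**
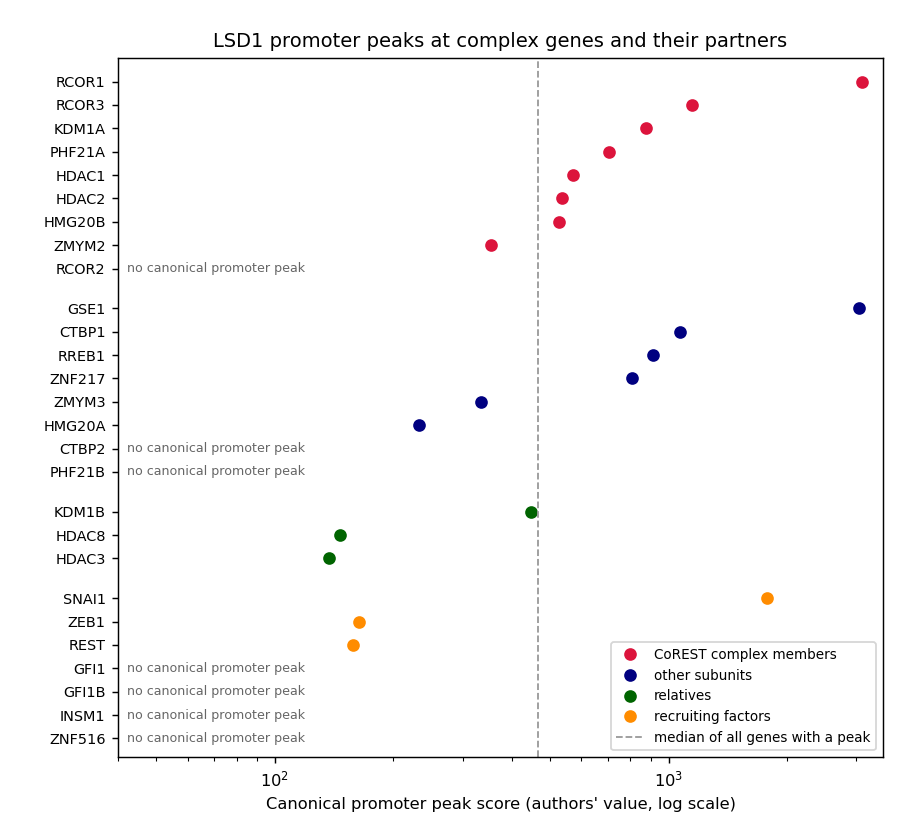
Canonical promoter peak score (authors' value, log axis) for the 9 complex genes and, below them, 18 other genes of the LSD1 network by group; the dashed line is the median of all genes with a promoter peak (464.7). Complex genes with a peak lie right of the line except ZMYM2, and 7 of the 27 genes are written as having no canonical promoter peak.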

How the data were processed

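LSD1 ChIP and input libraries (1 each) of PC-3M-luc cells were mapped to hg19 with bowtie 2, per the labels' protocols; MACS 1.41 is named with Bowtie2 in the submitters' processing notes, which list, beside hg19, a mouse build that was not used. The deposited list gives positions and a score per peak. The score was read from its values as -10 × log10 p, which no label states, and the authors' scores only ranked and described peaks. That the list is LSD1 called against input was taken from the sample labels. Read numbers, duplicate handling, the threshold and caller settings are not given in the sources used here.

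All 24 chromosome names occur in GRCh37 and 0 peaks run past a chromosome end. Genes came from GENCODE 44 mapped to GRCh37; of 20149 protein-coding symbols, 280 without a canonical transcript were left out. A peak counted for a gene when any base lay in it or within 10 kb, and was placed as canonical promoter (within 1 kb of that TSS), else alternative promoter (within 1 kb of another protein-coding TSS of the gene), else body, else flank. Promoter letters were searched at the 8 members with a promoter peak; the upstream sequence of RCOR2 is not reported here. Coordinates are 1-based and percentiles count ties as 50%. Code was tested on simulated peaks. The members and lists were chosen with earlier results of these data known. All 9 members are named; of each partner group, the 2 highest promoter scores and every gene without a promoter peak. Alternatives changed the peaks used, the promoter and flank windows and the start sites. Python 3.11.15, numpy 2.4.6, scipy 1.17.1, pysam 0.24.0 and matplotlib 3.10.9 were used.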

Additional observations from a re-analysis of the deposited data

How the results depend on the processing

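No paired analysis was possible because ChIP and input had 1 library each and the list joins them. RCOR2 was the only complex gene without a canonical promoter peak under every alternative for peaks and windows but one: with the peak midpoint within 1 kb RCOR1 also had none, giving 7 of 9, because its 5760 bp peak is centred upstream. Of 34 alternative values 25 stayed within 1.5 times (or, for the share of all genes, within its counting interval) and 9 moved. All are counts or shares, so none had a direction that could reverse. Some of the 25 lay at the limit of 1.5 times. At or above the median score 8 other partner genes had a promoter peak in place of 12, and HDAC3, HDAC8, REST and ZEB1 lost theirs. In gene bodies alone 12 peaks were assigned to the complex genes in place of 18. The share of all genes with a promoter peak was 51.3% with a score of at least 100, 43.6% at or above the median score, 54.5% without the widest 1% of peaks, 50.2% by midpoint, 58.6% with a window of 5 kb and 54.2% with the TSS base in a peak, a setting added after the data were seen. At or above the median score 9 peaks were assigned to the complex genes, in place of 18. At that setting 1 gene in place of 5 had a peak away from its own promoters: HDAC1, by the peak over MARCKSL1. In gene bodies alone 3 genes had such a peak. These settings drop peaks by construction. Depth is unknown, so weak peaks near the lowest score of 50 and absent ones cannot be weighed by read number.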
